A study of Mus musculus with 18 samples.

Results

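The genes described here encode subunits and assembly factors of respiratory complexes I, II, III and V. They were chosen by name: a probe was taken when its gene symbol in the platform's probe annotation began with Nduf, Uqcr or Atp5, or was Sdha, Sdhb, Sdhc or Sdhd. It was kept when its detection p-value was under 0.05 on both arrays of at least 1 group, and the brightest kept probe on average stood for its gene. The names fitted 104 probes of 68 genes, and 86 probes of 64 genes were kept, among 10980 genes tested in all. The 64 genes comprise 32 of complex I, 7 complex I assembly factors (Ndufaf genes), 3 of complex II, 6 of complex III and 16 of complex V. No measured level entered the choice beyond this detection filter.

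CGR8, a mouse embryonic stem cell line of strain 129P2/Ola, stays undifferentiated in culture with leukaemia inhibitory factor (LIF). Total RNA was hybridised to Illumina Sentrix Mouse-6 version 1.1 BeadChips, 18 arrays in 9 groups of 2. In 1 series cyclosporin A (CsA) was present while LIF was withdrawn for 0, 1 or 3 days. CsA is an inhibitor of the phosphatase calcineurin. In a second series LIF was withdrawn for the same times without CsA. In the third, ideltaCnAES cells were sampled 0, 1 and 4 days after tetracycline was removed. Removing it switches on deltaCnA, a calcineurin A subunit that is active without its usual regulation. Whether the CsA samples of day 0 had been exposed to CsA beforehand, and whether the inducible line is 1 clone, the sources used here do not say. The series title names the question as which genes calcineurin and NFAT regulate. Nothing in the labels says that the 2 samples of a group were grown apart, so the spread behind each p-value may be no more than technical.

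Complexes I to IV pass electrons along the inner mitochondrial membrane, all but complex II pump protons across it, and complex V, the ATP synthase, lets the protons back in to make ATP. Complex I accepts electrons from NADH, complex II oxidises succinate and is also an enzyme of the citric acid cycle, and complex III hands electrons from ubiquinol to cytochrome c. Nearly all of their subunits are encoded in the nucleus, and assembly factors help to build a complex without being part of it. Ndufa4 is counted with complex I by its name, although its protein is now known as a subunit of cytochrome c oxidase, complex IV. Undifferentiated mouse embryonic stem cells use both glycolysis and respiration.

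Promoters of respiratory genes are known for sites of the transcription factors NRF1, the ETS family (GABP), YY1 and the ERR receptors. Of the 64 genes, 56 had 1 or more entries in a RefSeq table of promoter sequences (build GRCm38.p6), 61 windows in all, each running from 250 bases before to 50 bases after the start. Exact letters were searched on both strands, with the letters chosen after expression values had been seen. The NRF1 letters, GCGCA and GCGC with any 1 base between them, stood in 24.6% of the 61 windows and in 4.60% of 32851 windows of all genes. The ETS letters CCGGAAG stood in 24.6% against 8.86%, the YY1 letters AAGATGGCG in 11.5% against 1.40%, and the ERR letters TCAAGGTCA in 3.28% against 0.423%. The ETS letters end in AAG, with which the YY1 letters begin, so these motifs can overlap, and a match is a description, not a bound site. Windows are printed for Ndufaf4, Atp5k and Ndufaf8, 3 of the 4 genes whose difference between cells with and without CsA at day 3 was called in all processing alternatives. Each is given 5′ to 3′ on its own strand, from 250 bases before to 20 bases after the start, with letters of the NRF1, ETS and YY1 motifs, or their reverse complement, in capitals. The stretches lie at chr4:24897833-24898102 on the plus strand (Ndufaf4), chr5:108434380-108434649 on the minus strand (Atp5k) and chr11:120098684-120098953 on the plus strand (Ndufaf8).
Ndufaf4: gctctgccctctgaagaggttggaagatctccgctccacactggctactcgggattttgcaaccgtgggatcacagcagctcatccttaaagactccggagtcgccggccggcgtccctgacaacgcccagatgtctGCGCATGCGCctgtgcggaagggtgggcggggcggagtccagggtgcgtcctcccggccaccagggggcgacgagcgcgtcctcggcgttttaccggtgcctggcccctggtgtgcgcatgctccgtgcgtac
Atp5k: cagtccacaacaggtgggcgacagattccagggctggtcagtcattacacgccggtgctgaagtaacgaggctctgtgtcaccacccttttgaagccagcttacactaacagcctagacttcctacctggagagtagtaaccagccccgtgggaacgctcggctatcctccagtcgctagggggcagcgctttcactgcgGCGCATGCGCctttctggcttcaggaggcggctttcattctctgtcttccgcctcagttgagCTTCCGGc
Ndufaf8: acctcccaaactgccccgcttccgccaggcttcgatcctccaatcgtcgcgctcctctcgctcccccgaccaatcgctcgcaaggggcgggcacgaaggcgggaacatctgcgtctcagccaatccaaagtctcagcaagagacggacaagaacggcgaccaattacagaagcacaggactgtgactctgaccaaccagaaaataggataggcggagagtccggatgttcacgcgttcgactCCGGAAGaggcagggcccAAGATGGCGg
The capitals are 1 NRF1 match in Ndufaf4, 1 NRF1 and 1 ETS match in Atp5k, and 1 ETS and 1 YY1 match, apart from each other, in Ndufaf8. The other gene with such a call, Uqcrh of complex III, has an ETS match 10 bases before its start.

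All values below are log2 intensities after background correction and quantile normalization, and a difference of 1 is a 2-fold change. A gene counts as called, or as having risen or fallen, where limma's adjusted p was under 0.05 in a model of all 18 arrays, adjusted over all 10980 genes of the comparison. Errors of a log2 change are standard errors. Group means have n = 2. Arrays averaged 286.9 to 484 in raw intensity and detected 40.43% to 44.07% of their probes. The 6 kept genes of 7 that mark embryonic stem cells (Nanog, Zfp42 and others) were detected on both arrays of every group. Their summed log2 level lay between 65.78 and 66.37 at day 3 without CsA, between 69.90 and 69.96 at day 3 with CsA, and between 69.85 and 72.21 elsewhere. Against day 0 without CsA, Zfp42 (-2.2 ± 0.12), Esrrb (-1.86 ± 0.11), Nanog (-1.44 ± 0.11) and Sox2 (-0.44 ± 0.12) fell at day 3. The other 2 were not called. With CsA 3 of the 6 fell at day 3. At day 1 of deltaCnA Sox2 fell (-0.51 ± 0.12) and Utf1 rose (0.61 ± 0.16). The sum over 5 kept trophectoderm genes of 6 lay between 40.87 and 41.91 at day 3 with or without CsA and between 35.81 and 38.33 elsewhere. These genes did not move together. At day 3 against day 0 without CsA, Krt18 (2.96 ± 0.18) and Krt8 (1.59 ± 0.23) rose and Tfap2c fell (-0.68 ± 0.22). With CsA only Krt18 was called (2.01 ± 0.18). Between treatments at day 3, Tfap2c was higher with CsA (1.84 ± 0.22) and Krt8 lower (-1.5 ± 0.23). Of the fibroblast genes 2 of 6 were kept, and their sum lay between 12.17 and 12.28 at day 3 with CsA and between 15.57 and 15.76 at day 3 without CsA. Against day 0 without CsA, Dcn rose at day 3 (3.07 ± 0.18) and the other, Thy1, was not called. The sum over 3 kept primitive endoderm genes of 6 lay between 18.88 and 19.49 at day 3 with CsA and between 17.45 and 17.86 at day 3 without CsA. The sum over 4 kept muscle genes of 6 lay between 20.64 and 22.97 in all groups, although 2 of them fell and 1 rose at day 3 without CsA. The part of these markers in the results at day 3 was not tested. In bulk RNA, fewer cells of a type and less RNA per cell cannot be told apart.

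Members changed by small amounts. Of the 64 genes, 41 were called in at least 1 of 11 comparisons, Ndufb10 only by the call set aside below, and 23 in none. The same count was not made over all genes, so nothing particular to the members is read from it. Only Atp5k passed a 2-fold change in a called comparison. Changes of 2-fold or more, called or not, made up 5.99% of all genes at day 3 with CsA and 12.2% without CsA. Between treatments at day 3 that share was 9.23%. With CsA, 19 members fell and 2 rose at day 3 against day 0, 32.8% of the 64, where 29.6% of all genes were called. Without CsA, 16 fell and 1 rose at day 3, 26.6% of the members, where 38.2% of all genes were called. The share of members called was therefore near or below that of all genes in both courses. By direction, 19 of 64 members fell with CsA where 14.6% of all genes fell, and 16 of 64 fell without it where 19.8% of all genes fell, while 14.9% and 18.4% of all genes rose. The median change of the members was -0.16 with CsA and -0.12 without CsA, against -0.01 and -0.05 over all genes tested. With median scaling 9 members fell and 0 rose with CsA, and 11 fell and 0 rose without CsA.

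Between cells with and without CsA at day 3, 12 members were lower and 7 higher with CsA, 29.7% of the members, where 38.1% of all genes were called, 19.1% lower and 19% higher. With median scaling 5 were lower and 0 higher, so all 7 higher calls were lost. At day 0, 5 were lower and 0 higher with CsA, 1 of them Ndufb10, which passed the detection filter only through the day 0 group without CsA and is set aside, where 13.2% of all genes were called, 6.99% lower and 6.17% higher. At day 1, 2 were lower and 0 higher, where 10.8% of all genes were called, 5.34% lower and 5.42% higher. The change at day 3 itself differed with CsA (interaction) for 3 members, all below 0, where 15.3% of all genes were called, 7.30% below 0 and 7.99% above. The interaction at day 1 called 0 members in limma, with 4 at an unadjusted p under 0.05, where 0.0729% of all genes were called, 0.0546% below 0 and 0.0182% above.
At day 1 against day 0, Ndufaf5 alone fell, both with CsA, where 4.54% of all genes were called, 2.19% lower and 2.34% higher, and without CsA, where 8.42% were called, 4.69% lower and 3.72% higher. After deltaCnA induction, 3 members fell and 1 rose at day 1 (with median scaling 0 fell and 1 rose), where 11.2% of all genes were called, 4.63% lower and 6.54% higher. At day 4, 0 members were called in limma, with 1 at an unadjusted p under 0.05, where 3.42% of all genes were called, 0.774% lower and 2.65% higher.

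**Figure D1:**
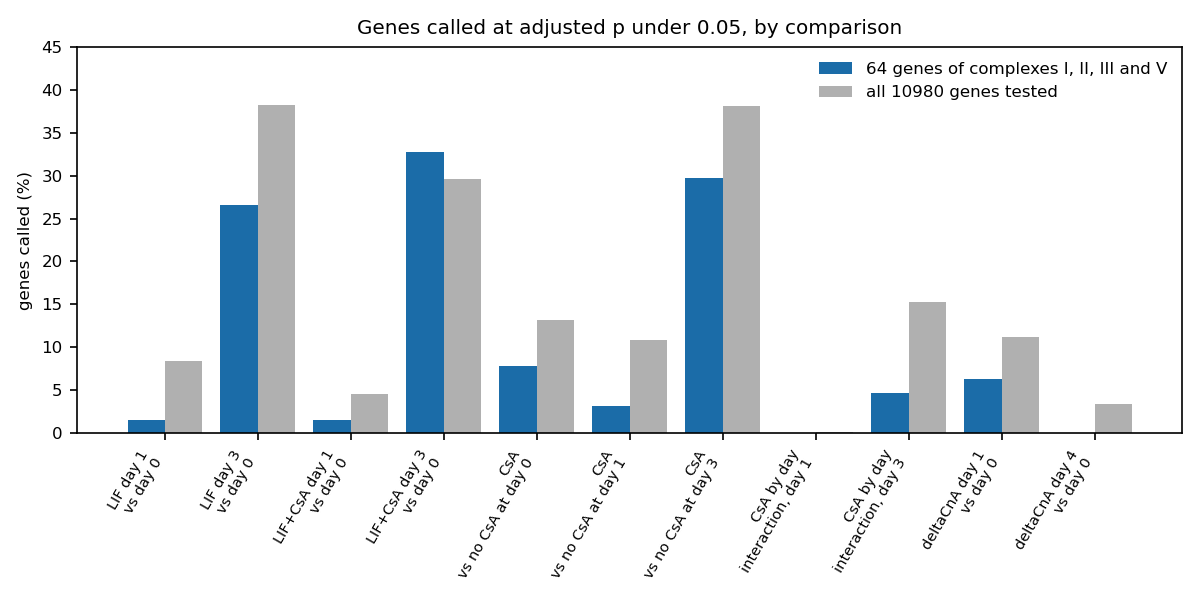
Percent of genes called (y axis) in each of the 11 comparisons (x axis), for the 64 members (blue, left) and for all 10980 genes tested (grey, right). The members' bar is the higher only for day 3 against day 0 with CsA, 32.8% against 29.6%.

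The complexes were set side by side by the median deviation of their members from each member's own mean over 18 arrays. For complex III it was -0.29 on both arrays at day 3 with CsA, against 0.03 and 0.13 at day 0 with CsA. Without CsA it was -0.18 and -0.14 at day 3, against 0.07 and 0.23 at day 0. For complex V it was -0.23 and -0.16 at day 3 with CsA, against -0.05 on both arrays at day 0 with CsA, and without CsA -0.07 and 0.00 at day 3, against 0.04 and 0.13 at day 0. For the complex I subunits it was -0.11 and -0.09 at day 3 with CsA, against -0.03 and 0.03 at day 0 with CsA. In each of these the day 3 arrays lay below those of day 0. For complex II with CsA they overlapped, at 0.04 and 0.06 at day 3, against -0.05 and 0.10 at day 0. In both courses the median change at day 3 was below 0 for every complex under each of the scalings tried. For complex II with CsA it was only -0.05. The difference between complexes was not tested.

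**Figure D2:**
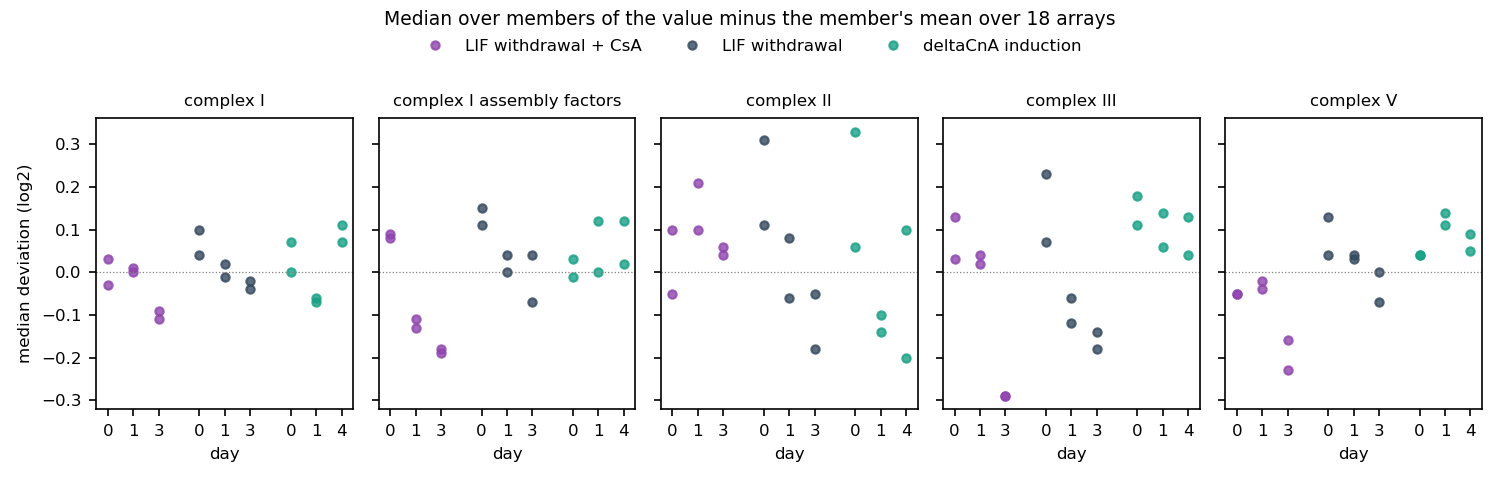
Median over the members of a complex of the log2 value minus the member's mean over 18 arrays (y axis), 1 point per array, by day (x axis) for LIF withdrawal with CsA (purple, left), LIF withdrawal (dark grey) and deltaCnA induction (green). Both arrays of day 3 with CsA lie at -0.29 for complex III, and in the deltaCnA series the points of complex V stay between 0.04 and 0.14.

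In the LIF withdrawal courses, complex II genes were called against day 0 only without CsA, in the course where 19.8% of all genes fell at day 3. The 3 measured genes were all called lower at day 3, Sdhb at the edge of the threshold: Sdhd and Sdhc, which encode its membrane anchors, and Sdhb, its iron-sulfur subunit. Sdha, the flavoprotein that oxidises succinate, was detected on 0 of 18 arrays and is not a member. With CsA, 0 of the 3 were called at day 3 in limma, with 0 at an unadjusted p under 0.05.
Sdhd read 5.94 and 6.66 at day 3 without CsA, against 6.97 and 7.18 at day 0, a change of -0.78 ± 0.25 (adjusted p = 0.0155). Both day 3 arrays were below both of day 0, and replicate 1 was the lower. With CsA it read 6.38 and 6.69 at day 3, against 6.58 and 6.77 at day 0, groups that overlap. Sdhc read 12.07 and 12.22 at day 3 without CsA, against 12.41 and 12.51 at day 0 (-0.31 ± 0.10, adjusted p = 0.0153). Sdhb read 10.81 and 10.95 at day 3 without CsA, against 11.06 and 11.33 at day 0 (-0.31 ± 0.12, adjusted p = 0.0493). Their changes with CsA were -0.05 ± 0.10 for Sdhc and 0.00 ± 0.12 for Sdhb. The test of the difference between the courses called none of them: the interaction was 0.64 ± 0.35 for Sdhd (adjusted p = 0.251), 0.31 ± 0.18 for Sdhb (0.266) and 0.27 ± 0.14 for Sdhc (0.227). A different response with CsA was therefore not shown. At day 3 itself Sdhc was higher with CsA, 12.44 and 12.50, against 12.07 and 12.22 without CsA (0.33 ± 0.10, adjusted p = 0.0126).

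Each of these complex II calls rests on single arrays. Without CsA at day 3, the call of Sdhd ended when either replicate 2 of day 0 (adjusted p = 0.109) or else replicate 1 of day 3 (0.302) was left out. That of Sdhc was lost without replicate 2 of day 0 (0.111) or of day 3 (0.140). That of Sdhb was lost without replicate 1 of day 0 (0.363), replicate 1 of day 3 (0.253) or replicate 2 of day 3 (0.0614), and in 7 of 11 other settings, among them median scaling (0.0629) and the series matrix values (0.0568). The higher Sdhc with CsA at day 3 was lost without replicate 1 of the CsA group (0.0827) or replicate 2 of the group without CsA (0.133), and with median scaling (0.339). Beyond LIF withdrawal, Sdhb fell at day 1 of deltaCnA induction, described below.

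In complex III, 4 of 6 genes fell at day 3 with CsA, where 14.6% of all genes fell. Without CsA 3 of 6 fell, where 19.8% of all genes fell. With so few genes the complexes were not ranked. Of the 7 assembly factors, 3 also fell with CsA and 1 rose, where 14.9% of all genes rose. Uqcrq and Uqcrc1 fell in both courses, Uqcr11 and Uqcrh with CsA, and Uqcrb without CsA. Uqcrc1 and Uqcrc2 encode the core proteins that face the matrix, and Uqcrb, Uqcrq, Uqcrh and Uqcr11 encode small subunits. Uqcrfs1, the Rieske iron-sulfur protein, had a probe detected on 5 arrays, at most 1 in a group, and is not a member.
Uqcrq read 8.98 and 9.03 at day 3 with CsA, against 9.54 and 9.69 at day 0 (-0.61 ± 0.13, adjusted p = 0.00083). Without CsA it read 8.75 and 9.06 at day 3, against 9.21 and 9.45 at day 0 (-0.42 ± 0.13, adjusted p = 0.0106). All day 3 arrays lay below all day 0 arrays in both courses. Uqcr11 read 12.20 and 12.27 at day 3 with CsA, against 12.74 and 12.84 at day 0 (-0.55 ± 0.15, adjusted p = 0.00603). Without CsA its day 3 arrays, 12.41 and 12.71, overlapped those of day 0, 12.56 and 12.82. Uqcrc1 read 12.31 and 12.36 at day 3 without CsA, against 12.66 and 12.75 at day 0 (-0.37 ± 0.10, adjusted p = 0.00519), and its change with CsA was -0.31 ± 0.10 (adjusted p = 0.0207). Uqcrb fell without CsA by 0.50 on the log2 scale (SE 0.13, adjusted p = 0.00332). The second core protein gene, Uqcrc2, was called in neither course, at 0.15 ± 0.11 with CsA and -0.26 ± 0.11 without CsA. The interaction called none of the 6, and was 0.40 ± 0.15 for Uqcrc2 (adjusted p = 0.0813) and -0.42 ± 0.21 for Uqcr11 (0.194).

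Uqcrh, the hinge protein, was the complex III gene that separated the treatments at day 3. It read 12.62 and 12.84 with CsA, against 13.20 and 13.26 without CsA (-0.50 ± 0.12, adjusted p = 0.00192), and that call held in all alternatives. Against day 0, Uqcrh fell by 0.32 on the log2 scale with CsA (SE 0.12, adjusted p = 0.0483). That second call was lost without replicate 2 of day 0 with CsA (0.401) or replicate 2 of day 3 with CsA (0.317). The median of the 6 genes between treatments at day 3 was 0.02, and -0.03 with median scaling, so no common direction was measured. Uqcrq without CsA was lost without replicate 1 of day 0 (0.124) or replicate 2 of day 3 (0.183). Uqcrc1 with CsA was lost without replicate 2 of day 0 (0.293) or replicate 1 of day 3 (0.127). With median scaling Uqcrh and Uqcrc1 were lost in the course with CsA (0.0910 and 0.108), and Uqcrb and Uqcrq in that without CsA (0.0586 and 0.0882).

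Complex V has a soluble catalytic part, F1, a ring of c subunits that turns in the membrane, a peripheral stalk, and small membrane subunits. The 3 ring genes Atp5g1, Atp5g2 and Atp5g3 encode the same mature protein. Only Atp5g1 of the 3 was called, and it fell at day 3 in both courses. It read 12.45 and 12.55 at day 3 with CsA, against 13.04 and 13.30 at day 0 (-0.67 ± 0.12, adjusted p = 0.000175). Without CsA it read 12.69 and 12.86 at day 3, against 13.55 and 13.58 at day 0 (-0.79 ± 0.12, adjusted p = 1.15e-05). The groups did not overlap in either course, and both calls held in all alternatives. The interaction was 0.12 ± 0.17 (adjusted p = 0.721). Atp5g2 changed by 0.18 ± 0.12 with CsA and 0.28 ± 0.12 without CsA (adjusted p = 0.299 and 0.0821), and Atp5g3 by -0.05 ± 0.11 and 0.00 ± 0.11 (0.772 and 0.98). With deltaCnA, Atp5g1 changed by 0.03 ± 0.12 at day 4.

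Among the small membrane subunits, Atp5k, which encodes subunit e, moved most. It read 6.08 and 6.35 at day 3 with CsA, against 7.18 and 7.26 at day 0 (2.01-fold lower, log2 SE 0.20, adjusted p = 0.000403). Both day 3 arrays lay below every other array of the 18, the next being 7.01. Without CsA it read 7.01 and 7.70 at day 3, against 7.62 and 7.90 at day 0, which overlap (-0.41 ± 0.20, adjusted p = 0.107). Between treatments at day 3 it was lower with CsA by 1.14 ± 0.20 on the log2 scale, a 2.20-fold difference (adjusted p = 6.58e-05). Cells with CsA were already lower before day 3: 7.11 and 7.13 with CsA at day 1, against 7.75 and 7.98 without CsA (-0.75 ± 0.20, adjusted p = 0.0153), and at day 0 the difference was -0.54 ± 0.20 (adjusted p = 0.0708). The day 1 call was lost without replicate 1 of CsA (0.0892), replicate 2 of CsA (0.0747) or replicate 1 of the group without CsA (0.134), and with median scaling (0.222). The interaction at day 3 was -0.60 ± 0.28 (adjusted p = 0.161). A second kept Atp5k probe, detected on 13 arrays, changed by -0.24 ± 0.21 at day 3 with CsA and differed by -0.30 ± 0.21 between treatments, and was not called.

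Other stalk and membrane genes were called as well. Atp5j, subunit F6 of the stalk, read 6.55 and 6.93 at day 3 with CsA, against 7.37 and 8.03 without CsA (-0.96 ± 0.26, adjusted p = 0.00561), and fell by 0.83 on the log2 scale against day 0 with CsA (SE 0.26, adjusted p = 0.0195). Its replicate 1 was the lower array in 8 of 9 groups. Atp5j2, subunit f, read 13.81 and 13.90 at day 3 with CsA, against 14.17 and 14.23 at day 0 (-0.34 ± 0.09, adjusted p = 0.00799), and changed by -0.25 ± 0.09 without CsA (0.0415). Atp5l, subunit g, fell by 0.33 on the log2 scale with CsA (SE 0.11, adjusted p = 0.0244). Its second kept probe was called the same way, at -0.64 ± 0.20. Atp5o, the stalk protein OSCP, read 5.13 and 5.16 at day 3 without CsA, against 5.66 and 5.99 at day 0 (-0.68 ± 0.19, adjusted p = 0.00547).
The genes of F1 gave other values. Atp5a1, the F1 alpha subunit, read 9.85 and 10.12 at day 3 with CsA, against 9.37 and 9.58 at day 0 (0.51 ± 0.15, adjusted p = 0.0115), and was 0.47 ± 0.15 higher than without CsA (0.014). Both calls were lost with median scaling (0.218 and 0.185). Its second kept probe changed by 0.20 ± 0.22 with CsA and -0.30 ± 0.22 without CsA, where the first gave 0.29 ± 0.15 without CsA, and differed by 0.52 ± 0.22 between treatments, none of them called. Atp5b, the beta subunit, changed by 0.07 ± 0.12 with CsA and -0.06 ± 0.12 without CsA, and Atp5c1, the gamma subunit, by -0.04 ± 0.12 and -0.09 ± 0.12. Atp5b, Atp5c1, Atp5d and Atp5e of F1 were called in no comparison.

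Several of these complex V calls were lost with 1 array. At day 3 against day 0 with CsA, leaving out replicate 2 of day 0 ended those of Atp5a1 (adjusted p = 0.128), Atp5j (0.326) and Atp5j2 (0.0676). Leaving out replicate 1 of day 3 ended those of Atp5a1 (0.154), Atp5j (0.178), Atp5j2 (0.0777) and Atp5l (0.0760). That of Atp5l was also lost without replicate 1 of day 0 (0.179) or replicate 2 of day 3 (0.102). Between treatments at day 3, leaving out replicate 1 with CsA ended those of Atp5a1 (0.180), Atp5j (0.0827) and Atp5j2 (0.134), where Atp5j2 had differed by -0.29 ± 0.09 (0.0194). Leaving out replicate 2 without CsA ended the same calls, at 0.334 for Atp5a1, 0.136 for Atp5j and 0.0575 for Atp5j2, and leaving out replicate 1 without CsA ended that of Atp5j2 (0.0984). Without CsA, Atp5o was lost without replicate 2 of day 0 (0.0884), and Atp5j2 without replicate 1 of day 0 (0.233), replicate 1 of day 3 (0.0961) or replicate 2 of day 3 (0.159). With median scaling Atp5j2 was lost in both courses (0.0793 with CsA, 0.0865 without CsA) and between treatments, and Atp5l was lost with CsA (0.0897).

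**Figure D3:**
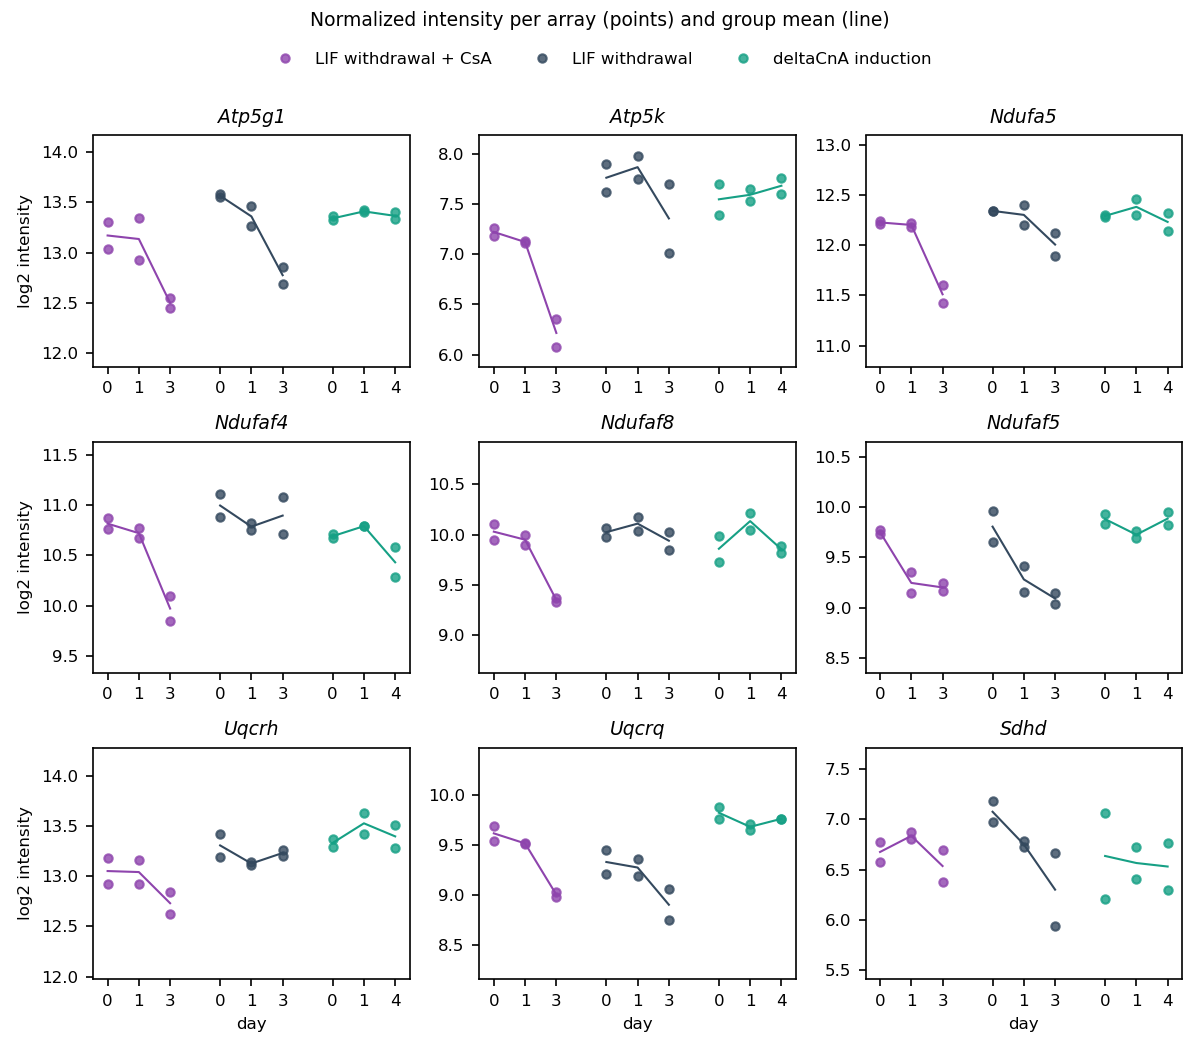
Normalized log2 intensity (y axis) of 9 members, 1 point per array and a line through group means, by day (x axis) for LIF withdrawal with CsA (purple, left), LIF withdrawal (dark grey) and deltaCnA induction (green). Atp5g1 and Ndufaf5 are lower at day 3 in both withdrawal series, and Atp5k, Ndufaf4 and Ndufaf8 have their lowest points at day 3 with CsA.

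Complex I, the largest group, had 7 of 32 subunits lower and 0 higher at day 3 with CsA, and 5 lower and 0 higher without CsA. Over all genes, 14.6% fell at day 3 with CsA and 19.8% without CsA. Its catalytic core holds flavin, iron-sulfur clusters and the quinone site, and 5 core subunits were measured: Ndufs3, Ndufs7, Ndufs8, Ndufv1 and Ndufv2. Ndufs1, also of the core, was detected on 0 arrays. The 5 had a median change of -0.12 with CsA and -0.25 without CsA at day 3. With CsA only Ndufv2 was called, at -0.39 ± 0.14 (adjusted p = 0.0421), and without CsA only Ndufv1, at -0.35 ± 0.13 (0.0327). Ndufs8, at -0.18 ± 0.10 and -0.14 ± 0.10, was called in no comparison.
Ndufs3 was lower with CsA at each of the 3 days, in comparisons that share no arrays with one another. It read 11.33 and 11.36 with CsA at day 0, against 11.77 and 11.85 without CsA (-0.46 ± 0.11, adjusted p = 0.00681). At day 1 it read 11.17 and 11.39 with CsA, against 11.62 and 11.77 (-0.41 ± 0.11, adjusted p = 0.0161), and at day 3 11.19 and 11.26, against 11.55 and 11.56 (-0.33 ± 0.11, adjusted p = 0.0199). No array with CsA reached any array of LIF withdrawal without CsA. All 3 calls were lost with median scaling (0.0801 at day 0, 0.391 at day 1 and 0.205 at day 3), and that of day 1 as a mean of probes (0.184). A second kept Ndufs3 probe differed by -0.34 ± 0.12 at day 3 (adjusted p over all kept probes 0.0245), by 0.02 ± 0.12 at day 1 (0.944) and by -0.26 ± 0.12 at day 0 (0.162). That probe rose at day 3 against day 0 with CsA (0.35 ± 0.12) and without CsA (0.43 ± 0.12), where the brighter probe was not called. Ndufs7, which carries the last cluster before quinone, read 10.94 and 11.03 with CsA at day 0, against 11.35 and 11.44 without CsA (-0.41 ± 0.11, adjusted p = 0.0135), and differed by -0.08 ± 0.11 at day 3.

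Among the supernumerary subunits of complex I, which surround the core, Ndufa5 moved most with CsA. It read 11.42 and 11.60 at day 3 with CsA, against 12.21 and 12.24 at day 0 (-0.71 ± 0.11, adjusted p = 2.62e-05), and this call held in all alternatives. Without CsA it read 11.89 and 12.12 at day 3, against 12.34 on both arrays of day 0 (-0.34 ± 0.11, adjusted p = 0.0165). Between treatments at day 3 the difference was -0.50 ± 0.11 (adjusted p = 0.00089), which was lost with median scaling (0.0517) and as a mean of its 2 kept probes (0.385). Ndufa8 fell in both courses, by 0.49 on the log2 scale with CsA (SE 0.11, adjusted p = 0.00135) and by 0.28 without CsA (SE 0.11, 0.0395). With CsA, Ndufc1 (-0.36 ± 0.09), Ndufs5 (-0.45 ± 0.13), Ndufb3 and Ndufb6 (both -0.31) also fell. Without CsA, Ndufa3 fell (-0.35 ± 0.12), and Ndufb4 read 5.02 and 5.09 at day 3, where it was undetected on both arrays, against 5.83 and 6.22 at day 0. That is at least a 1.94-fold lower level (adjusted p = 0.00252).
Between treatments at day 3, complex I went both ways, with 4 subunits higher and 6 lower with CsA, where 19% of all genes were higher and 19.1% lower. With median scaling all 10 were lost: the higher Ndufa6, Ndufb5, Ndufb9 and Ndufb11 at adjusted p of 0.0523, 0.0920, 0.199 and 0.0816, and the lower Ndufa5, Ndufa12, Ndufb3, Ndufc1, Ndufs3 and Ndufs5 at 0.0517, 0.0960, 0.156, 0.225, 0.205 and 0.0589. Higher were Ndufa6, at 8.29 and 8.65 with CsA against 7.71 and 7.80 without CsA (0.71 ± 0.18, adjusted p = 0.0031), Ndufb11 (0.66 ± 0.24), Ndufb5 (0.60 ± 0.14) and Ndufb9 (0.49 ± 0.18). Lower beside Ndufa5 and Ndufs3 were Ndufs5 (-0.47 ± 0.13), Ndufa12 (-0.38 ± 0.11), Ndufb3 (-0.37 ± 0.10) and Ndufc1 (-0.24 ± 0.09). The 4 that were higher all averaged under 10 on the log2 scale, and all 6 that were lower averaged above 10. Over the 64 genes, the 23 with averages under 10 had 6 higher and 3 lower with CsA, and the 41 others had 1 higher and 9 lower. How much signal strength has to do with direction was not tested. At day 0 Ndufb10 read 4.69 and 4.87 with CsA, undetected on both arrays, against 5.43 and 5.54 without CsA. Day 0 without CsA is the only group through which Ndufb10 passed the detection filter, so this difference is a description and supports nothing.

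Many complex I calls were lost with 1 array. With median scaling Ndufa8, Ndufb3, Ndufb6, Ndufc1 and Ndufv2 were lost at day 3 with CsA (adjusted p = 0.0536, 0.211, 0.114, 0.0716 and 0.200), and Ndufa8 without CsA (0.103). At day 3 against day 0 with CsA, Ndufb3, Ndufb6 and Ndufv2 were lost without replicate 1 of day 0 (adjusted p = 0.157, 0.245 and 0.354), Ndufs5 without replicate 2 of day 0 (0.391), Ndufb3 and Ndufb6 without replicate 1 of day 3 (0.0591 and 0.108), and Ndufb3, Ndufb6, Ndufs5 and Ndufv2 without replicate 2 of day 3 (0.0860, 0.117, 0.205 and 0.495). Without CsA, Ndufa3, Ndufa5 and Ndufv1 were lost without replicate 1 of day 0 (0.300, 0.0556 and 0.120), and Ndufa5, Ndufa8 and Ndufv1 without replicate 2 of day 0 (0.0603, 0.280 and 0.0735). Leaving out replicate 1 of day 3 ended Ndufa3, Ndufa5 and Ndufa8 (0.147, 0.215 and 0.0741), and replicate 2 of day 3 ended Ndufa8 and Ndufv1 (0.172 and 0.316). Between treatments at day 3, Ndufa6, Ndufa12, Ndufb9, Ndufb11, Ndufc1 and Ndufs3 were lost without replicate 1 with CsA (0.0719, 0.0959, 0.313, 0.423, 0.125 and 0.112). Ndufc1 and Ndufs5 were lost without replicate 2 with CsA (0.132 and 0.148). Ndufb9, Ndufc1 and Ndufs3 were lost without replicate 1 of the cells without CsA (0.223, 0.0530 and 0.0750). Ndufa12, Ndufb3, Ndufb11, Ndufc1, Ndufs3 and Ndufs5 were lost without its replicate 2 (0.0872, 0.0675, 0.403, 0.271, 0.0740 and 0.0979). Ndufs3 at day 1 was lost without replicate 1 with CsA (0.234) or replicate 2 without CsA (0.153), and at day 0 without replicate 1 with CsA (0.0639). At day 0, Ndufs7 was lost without replicate 1 with CsA (0.0562), replicate 2 with CsA (0.0928) or replicate 1 without CsA (0.0809).

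Among the complex I assembly factors, Ndufaf4 and Ndufaf8 were called only in comparisons that include day 3 with CsA. In human cells Ndufaf4 helps to build the quinone-binding part of complex I, and Ndufaf8 works with Ndufaf5. Ndufaf4 read 9.85 and 10.09 at day 3 with CsA, against 10.76 and 10.87 at day 0 (-0.84 ± 0.13, adjusted p = 3.29e-05). Without CsA it read 10.71 and 11.08 at day 3, against 10.88 and 11.11 at day 0, which overlap (-0.10 ± 0.13). Between treatments at day 3 it was lower with CsA by 0.92 ± 0.13 on the log2 scale, a 1.90-fold difference (adjusted p = 5.81e-06). Ndufaf8 read 9.33 and 9.37 at day 3 with CsA, against 9.95 and 10.11 at day 0 (-0.68 ± 0.12, adjusted p = 0.000153), and 9.85 and 10.03 at day 3 without CsA (-0.59 ± 0.12 between treatments, adjusted p = 0.000408). Both genes had their 2 lowest values of the 18 arrays at day 3 with CsA. The printed promoter windows of these 2 genes and of Atp5k share no motif that is in all 3.
The interaction, the change at day 3 with CsA minus that without CsA, called Ndufaf4 at -0.74 ± 0.19 (adjusted p = 0.0078), Ndufaf8 at -0.59 ± 0.17 (0.0196) and the subunit Ndufc1 at -0.42 ± 0.13 (0.0299), and no other member. Each was lost with single arrays. Ndufaf4 was lost without replicate 1 of day 3 with CsA (0.0587) or replicate 2 of day 3 without CsA (0.0663). Ndufaf8 was lost without replicate 1 of day 0 with CsA (0.0874), replicate 2 of day 0 without CsA (0.0646) or replicate 2 of day 3 without CsA (0.0967). Ndufc1 was lost without any of 7 of the 8 arrays, at adjusted p between 0.0537 and 0.120, the exception being replicate 1 of day 3 without CsA. With median scaling 0 members were called in the interaction. For Ndufaf4 the probes also disagreed: its other 2 kept probes changed by 0.13 ± 0.23 and 0.09 ± 0.16 at day 3 with CsA and differed by -0.51 ± 0.23 and 0.25 ± 0.16 between treatments, none of them called. As a mean of its probes, Ndufaf4 was not called at day 3 against day 0 with CsA (adjusted p = 0.198).

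Ndufaf5 and Ndufaf1 behaved otherwise. Ndufaf5, a complex I assembly factor that modifies Ndufs7 in human cells, was the only member called at day 1 against day 0 of LIF withdrawal. It read 9.14 and 9.35 at day 1 with CsA, against 9.73 and 9.77 at day 0 (-0.51 ± 0.13, adjusted p = 0.0205), and 9.15 and 9.41 at day 1 without CsA, against 9.65 and 9.96 (-0.53 ± 0.13, adjusted p = 0.00936). At day 3 it read 9.16 and 9.24 with CsA (-0.55 ± 0.13, adjusted p = 0.00212) and 9.04 and 9.14 without CsA (-0.71 ± 0.13, adjusted p = 9.33e-05). All 8 later arrays lay below all 4 of day 0. With CsA the day 1 call was lost if replicate 1 of day 0 (0.152), replicate 2 of day 0 (0.0970) or replicate 2 of day 1 (0.251) was left out, and with median scaling (0.362). In cells that had no CsA it was lost if replicate 1 of day 0 (0.153) or replicate 1 of day 1 (0.183) was left out. As a mean of the gene's probes the day 1 call was lost with CsA (0.695) and without CsA (0.152). With CsA it was also lost without an intensity trend (0.0513), and without CsA with only the arrays compared (0.057). A second Ndufaf5 probe, detected on 7 arrays, changed by -0.47 ± 0.23 at day 3 without CsA and by 0.32 ± 0.23 with CsA. At day 3 it was 0.66 ± 0.23 higher with CsA than without CsA. The call at day 3 with CsA was lost as a mean of both probes (0.624) and with median scaling (0.0692).
Ndufaf1, which helps to assemble the membrane arm, read 9.19 and 9.41 at day 3 without CsA, against 9.78 and 9.97 at day 0 (-0.58 ± 0.13, adjusted p = 0.000956), a call held in all alternatives. At day 3 it was 0.33 ± 0.13 higher with CsA (adjusted p = 0.0496), lost without replicate 1 (0.141) or replicate 2 (0.124) with CsA, or replicate 1 without CsA (0.326), and with median scaling (0.408). Ndufaf7, a methyltransferase needed for complex I assembly, rose instead. It read 8.97 and 9.24 at day 3 with CsA, against 8.68 and 8.75 at day 0 (0.39 ± 0.15, adjusted p = 0.0457), and 9.06 and 9.33 at day 3 without CsA, against 8.49 and 8.77 (0.56 ± 0.15, adjusted p = 0.00351). With CsA it was lost without replicate 1 (0.172) or 2 (0.110) of day 0, or replicate 2 of day 3 (0.311). Without CsA it was lost without replicate 1 of day 0 (0.0612) or of day 3 (0.0727). With median scaling the rise was lost in both courses, at 0.355 with CsA and 0.126 without CsA, and with CsA it was lost in 5 of 11 settings.

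**Figure D4:**
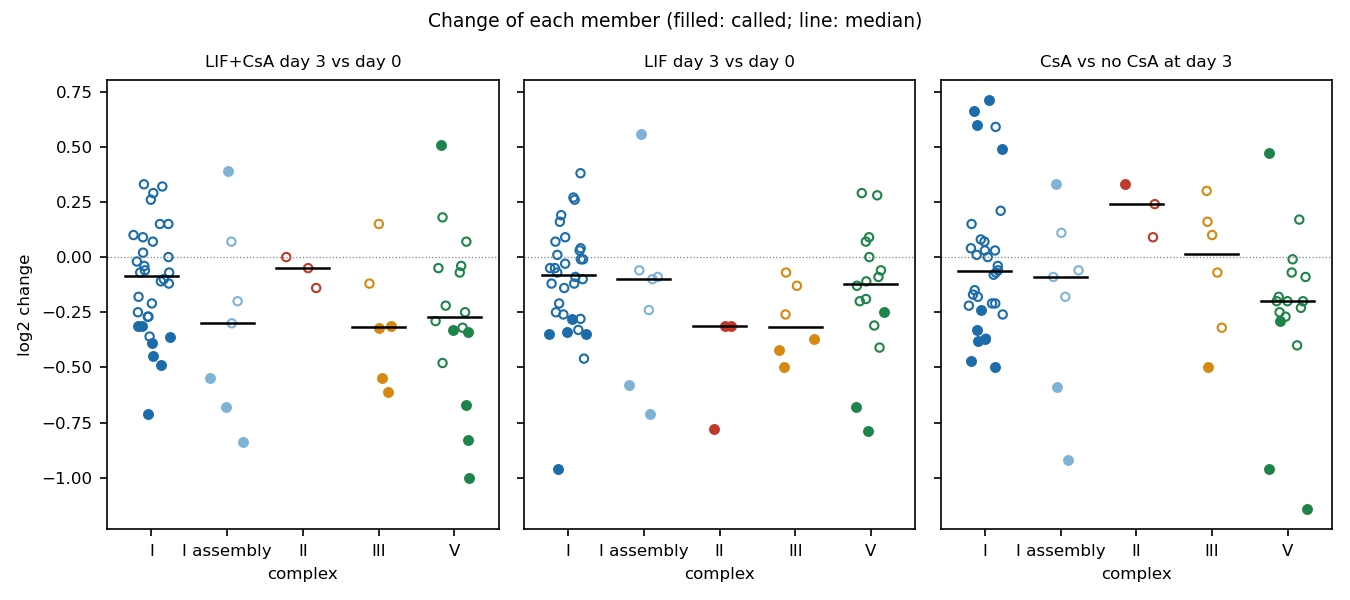
Log2 change of each member (y axis) by complex (x axis) for day 3 against day 0 with CsA (left), the same without CsA (middle), and CsA against no CsA at day 3 (right). Filled points were called and lines are medians, which lie below 0 for every complex in the 2 courses, from -0.32 to -0.05 with CsA and from -0.31 to -0.08 without CsA.

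The courses with and without CsA share no arrays, so their called members can be set side by side. Atp5g1, Atp5j2, Ndufa5, Ndufa8, Ndufaf5, Uqcrc1 and Uqcrq fell in both, 36.8% of the 19 that fell with CsA and 43.8% of the 16 that fell without CsA, and Ndufaf7 rose in both. Of the 64 members, 40 were below 0 in both courses and 7 above 0 in both. These overlaps were not counted over all genes, so nothing particular to the members is read from them. Across the 64 genes, which are not independent, the day 3 changes correlated at r = 0.43 (Spearman's rho 0.42), against 0.65 and 0.57 over all 10980 genes.

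At day 0 the labels of the groups with and without CsA differ only in CsA. Slide, scan and earlier exposure to CsA are not given, so a difference there cannot be assigned to CsA alone. The 4 lower members at day 0 other than Ndufb10 were Ndufs3 and Ndufs7 of complex I, the assembly factor Ndufaf3 and Atp5g1 of the ATP synthase ring. With median scaling Ndufs3, Ndufs7 and Ndufaf3 were lost (adjusted p = 0.0801, 0.125 and 0.253). Ndufaf3 read 10.93 and 10.99 with CsA, against 11.22 and 11.32 without CsA (-0.31 ± 0.10, adjusted p = 0.0412). Atp5g1 read 13.04 and 13.30 with CsA, against 13.55 and 13.58 without CsA (-0.39 ± 0.12, adjusted p = 0.0335). Largest in the other direction was Ndufb11, at 0.71 ± 0.24, which was not called (adjusted p = 0.0542). In complex II the extremes were Sdhc at 0.06 ± 0.10 and Sdhd at -0.40 ± 0.25, and in complex III Uqcrq at 0.29 ± 0.13 and Uqcrh at -0.25 ± 0.12, none called. The call of Ndufaf3 was lost without any of the 4 arrays (0.0610 to 0.215). That of Atp5g1 was lost without replicate 1 with CsA (0.325), replicate 1 without CsA (0.107) or replicate 2 without CsA (0.111).

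Induction of deltaCnA moved few members. At day 1 Ndufa10, a nucleoside-kinase-like subunit of complex I, read 11.91 and 12.08, against 12.54 and 12.60 at day 0 (-0.58 ± 0.11, adjusted p = 0.00146). Ndufa13 read 12.42 and 12.64, against 12.85 and 12.94 (-0.37 ± 0.11, adjusted p = 0.0287), and Sdhb 10.77 and 10.86, against 11.25 and 11.33 (-0.48 ± 0.12, adjusted p = 0.0156). Atp5j rose, at 8.42 and 8.73, against 7.58 and 7.76 (0.91 ± 0.26, adjusted p = 0.0282). Its second kept probe changed by 0.00 ± 0.22. None of the groups overlapped, and none of these genes was called at day 4, when Ndufa10 read 12.49 and 12.53 and Atp5j 7.61 and 7.83. The largest changes at day 4 were those of Ndufaf7 (0.37 ± 0.15, adjusted p = 0.197), Ndufb4 (-0.27 ± 0.24, 0.691) and Ndufaf4 (-0.26 ± 0.13, 0.361). The other extremes there lay within 0.22, with Ndufa3 at 0.22, Atp5pb at 0.16, Uqcrh at 0.06, Sdhc at -0.15, Uqcrc2 at -0.14 and Atp5g2 at -0.13.
All 4 day 1 calls were lost with single arrays. Without replicate 1 of day 0, Atp5j, Ndufa13 and Sdhb were lost (adjusted p = 0.153, 0.0686 and 0.101), and without replicate 2 of day 0 the same genes (0.105, 0.198 and 0.0753). Without replicate 1 of day 1, Atp5j, Ndufa10, Ndufa13 and Sdhb were lost (0.265, 0.0512, 0.0526 and 0.155), and without replicate 2 of day 1 Ndufa13 (0.218). With median scaling all 3 falls were lost: Ndufa10 (0.0988), Ndufa13 (0.457) and Sdhb (0.342).

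Other genes of respiration, from lists that overlap the members only in the 5 core subunits of complex I, were set beside them. Their counts at day 3 stand beside 29.6% of all genes called with CsA and 38.2% without CsA, and nothing particular to a list is read from them. At day 3 without CsA, 5 of 14 further subunits and assembly factors fell and 0 rose: Acad9 (-0.77 ± 0.17), Ecsit (-0.71 ± 0.14) and Tmem126b (-0.66 ± 0.18) of complex I assembly, Atpaf2 of complex V assembly and Bcs1l of complex III assembly. With CsA 4 fell and 1 rose, among them Acad9 (-0.79 ± 0.17), the complex II factor Sdhaf1 (-0.65 ± 0.14) and, upward, Ttc19 (0.40 ± 0.11). Of 15 citric acid cycle and pyruvate dehydrogenase genes, 1 fell and 2 rose with CsA, and 6 fell and 0 rose without CsA. Idh2, mitochondrial isocitrate dehydrogenase, rose with CsA (0.69 ± 0.20) and fell without CsA (-0.75 ± 0.20).
Of 17 regulators of mitochondrial gene expression, 5 fell and 2 rose with CsA, and 7 fell and 3 rose without CsA. Esrrb, a receptor of the ERR group that also marks stem cells, changed by -0.41 ± 0.11 with CsA and by -1.86 ± 0.11 without CsA. Of the GABP genes, Gabpa fell without CsA (-0.77 ± 0.15), and Gabpb1 rose without CsA (0.49 ± 0.15) and with CsA (0.52 ± 0.15). Polg rose without CsA (0.97 ± 0.14). Nrf1 was called in neither course at day 3 against day 0. It was lower with CsA than without CsA at day 3 (-0.48 ± 0.15), and fell at day 1 of deltaCnA (-0.54 ± 0.15). Of 14 import genes, 4 fell with CsA and 2 without CsA, Timm8a1 and Timm10 in both. Of 7 carriers, Ckmt1, mitochondrial creatine kinase, changed by -0.73 ± 0.15 with CsA and by -1.37 ± 0.15 without CsA, and rose at day 4 of deltaCnA (0.83 ± 0.15). Among 7 genes that set the fuel balance, 2 rose and 2 fell at day 3 with CsA, and 1 rose and 2 fell without CsA. Ldhb rose with CsA (1.32 ± 0.13) and without CsA (1.18 ± 0.13), and Hk2 fell in both (-0.63 ± 0.15 and -0.96 ± 0.15). Ldha fell with CsA (-0.69 ± 0.17). Pdk4 rose with CsA (0.83 ± 0.25) and fell without CsA (-0.99 ± 0.25). Between treatments at day 3, 3 were higher with CsA, Pdk4 by 2.32 ± 0.25, and 2 were lower, Ldha (-0.95 ± 0.17) and Pdk1 (-0.64 ± 0.13).

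The 23 members called in no comparison include Atp5b, Atp5g3, Ndufa4, Atp5pb, the stalk b subunit, Ndufs4, Ndufs8, Ndufv3, Ndufab1, the acyl carrier protein, and Uqcrc2. A gene outside the calls is not shown to be unchanged. For 17 members, 22 other kept probes gave a second reading. With CsA at day 3, 7 called members had another kept probe, and it was called the same way for 1 of them and the opposite way for 0. Without CsA it was 1 of 2, and between treatments at day 3 1 of 6, again with 0 opposite. Other probes were also called where the brightest was not. At day 3 without CsA, 2 further Ndufab1 probes rose (0.55 ± 0.12 and 0.42 ± 0.12, adjusted over all kept probes 0.000621 and 0.00657), where the brightest gave 0.26 (0.0764). A second Atp5pb probe fell with CsA (-0.51 ± 0.18, 0.0404) and without CsA (-0.56 ± 0.18, 0.0169). A second Ndufaf3 probe fell with CsA (-0.82 ± 0.19, 0.00267) and without CsA (-0.60 ± 0.19, 0.0173), and a second Ndufb8 probe was lower with CsA at each of the 3 days (-0.71, -0.71 and -0.57 at days 0, 1 and 3, SE 0.20). The absence of a call for a gene therefore holds for its brightest probe.
At the edge of the detection filter, Atp5md and Ndufb10 were kept with 6 arrays detected and Ndufb2 with 9, each through 1 group only (for Ndufb10, day 0 without CsA), and Ndufb4 with 15. Just outside were Uqcrfs1, with 5 arrays detected, and Ndufaf6, Ndufs1 and Sdha, each with 0. The other 60 members were detected on all 18 arrays.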

How the data were processed

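Per the labels, Trizol RNA was converted to biotinylated cRNA with the Ambion MessageAmp kit and hybridised to 18 arrays. Per the file headers, the deposited intensity values are non-normalized and come with a detection p-value per probe and array. Values below 0 show that a background had been subtracted, and no source used here names the scanner software. The deposited series matrix intensity values, which the authors normalized by an unstated method, served as an alternative: their scale is linear, and how they were centred stays unknown.

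Intensities were background-corrected (normexp from detection p-values, offset 16), quantile-normalized and taken to log2 in limma 3.58.1 (R 4.3.3). Of 46632 probes, 29976 had 1 gene symbol, 10 several and 16646 none in the platform annotation, which can be old. The detection filter (p under 0.05, both arrays, at least 1 group) passed 21691 probes, and 5642 of these lacked a single symbol. The brightest probe on average stood for its gene, which left 10980 genes. Levels of different probes were not compared. One linear model of 9 group means (9 residual degrees of freedom) was fitted with an intensity trend, and p-values were adjusted by Benjamini and Hochberg's method over all genes in each of 11 comparisons. The fit was tested on simulated data. A gene undetected on both arrays of a group was given a fold as a lower bound, against the lowest level detected on each array.

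The main model did not pair arrays by replicate number, and the labels do not say whether the numbers pair them. Over 36 pairs of groups, deviations of arrays with the same number correlated at -0.21 to 0.35 (median 0.06), above 0.1 in 16. With the replicate number added to the model as a block, 1671 of all genes were called between treatments at day 0 (1446 without it). At day 1 they numbered 1386 (1181 without it). The number of arrays limits the precision. The files name no slide or scan, so such batches were not analysed. Lowest raw intensities lay between -57.95 and -47 on the deltaCnA arrays and between -29.37 and -23.71 on all others. Whether the arrays of a series share a batch is not known. The members and gene lists were chosen with earlier results of these data known. Named were members called in a comparison, the Sdh, ring and complex I core genes, and the extremes of each complex at day 0 with CsA, day 3 and day 4. Ndufa4l2 and Atpif1 were also to be named, but are not among the 68 genes that fitted the symbol rule. Promoter sequences are from RefSeq, and none is printed for Atp5a1.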

Additional observations from a re-analysis of the deposited data

Results flagged for a closer look

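For 3 members the change at day 3 against day 0 differed with CsA by the interaction test of limma. Ndufaf4 changed by -0.84 with CsA and -0.10 without CsA, a difference of -0.74. Ndufaf8 differed by -0.59 and Ndufc1 by -0.42. All 3 calls were lost with median scaling (adjusted p = 0.320, 0.443 and 0.606) and without single arrays, as given above, and the other kept probes of Ndufaf4 gave interactions of -0.14 and -0.13.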

How the results depend on the processing

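Members called under other settings moved by over 1.5 times as follows. With median scaling they numbered 9 at day 3 against day 0 with CsA (21 in the report's setting), 11 without CsA (17), 0 at day 1 with CsA (1), 2 at day 1 without CsA (1), 5 between treatments at day 3 (19), 2 at day 0 (5), 0 at day 1 (2), 0 in the interaction at day 3 (3) and 1 at day 1 of deltaCnA (4). Without an intensity trend they numbered 11 at day 3 without CsA, 0 at day 1 with CsA, 3 between treatments at day 0, 1 at day 1 and 2 at day 1 of deltaCnA. As means of a gene's probes they numbered 0 at day 1 with CsA, 0 at day 1 without CsA and 1 between treatments at day 1. Without a detection filter they numbered 3 between treatments at day 0 and 2 at day 1 of deltaCnA, and with only the arrays compared 1 between treatments at day 0 and 0 at day 1 without CsA. With the replicate block they numbered 4 between treatments at day 1 (2 without the block), and with the block no other count moved past 1.5 times.

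Leaving out 1 array gave 15 to 16 members at day 3 with CsA, 10 to 15 at day 3 without CsA, 0 to 1 at day 1 with CsA and 0 to 2 without CsA. Between treatments it gave 9 to 17 at day 3, 0 to 3 at day 0 and 0 to 2 at day 1, in the interaction 0 to 5 at day 3 and 0 to 0 at day 1, and with deltaCnA 0 to 5 at day 1 and 0 to 0 at day 4. A lone remaining array is assumed to vary like the other groups. Of 73 calls, 22 held without any 1 array and 15 in every setting. As means of probes, 2 values that were not called reversed: Ndufaf3 at day 3 with CsA (-0.38) and Ndufb8 between treatments at day 0 (-0.35). With median scaling the median of all genes at day 1 without CsA was -0.19 (-0.01 in the report's setting), and the share of calls that were higher was 20% (44.3% in the report's setting). That share was 34.1% (51.6%) at day 1 with CsA, and between treatments 35.7% (46.9%) at day 0 and 69.2% (50.4%) at day 1. The cause was not tested. The slide as a block was not run.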
